A study of Rattus norvegicus with 32 samples.

Results

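Calcium signalling at synapses is read by a small set of enzymes, and 9 of their genes are described here in the adult rat hippocampus: the 4 genes of calcium/calmodulin-dependent protein kinase II (Camk2a, Camk2b, Camk2d and Camk2g), Camk4, the calcineurin subunit genes Ppp3ca, Ppp3cb and Ppp3r1, and Prkcb. The members were taken by gene symbol from the 32883 genes counted in both deposited tables, and each of the 9 symbols matched a single gene. All 9 passed the filter on low counts in every comparison.

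The samples were hippocampi of 32 Sprague-Dawley rats at an age of 65 days, in 4 diet groups of 4 males and 4 females. IS rats were always iron-sufficient controls, ISch rats were iron-sufficient with choline given to the dam in later gestation, FID rats were formerly iron-deficient through the dam's diet in gestation and the first postnatal week (diet ID in the labels), and FIDch rats were formerly iron-deficient with prenatal choline (IDch in the labels). All had been fed an iron-sufficient diet since then, so the groups differ by early history and not by current diet. Males carry the label of sequencing batch I and females that of batch II, with different RNA extraction kits, so a difference between the sexes cannot be told apart from one between batches.

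When calcium enters a spine it binds calmodulin, and calcium-loaded calmodulin activates both sides of a balance. CaMKII phosphorylates receptors and scaffold proteins and is needed for long-term potentiation, while calcineurin removes phosphate groups and is needed for long-term depression. CaMKII is a holoenzyme whose alpha and beta subunits prevail in forebrain neurons and whose delta and gamma subunits are more widely expressed. Calcineurin pairs a catalytic subunit with the calcium-binding regulatory subunit that Ppp3r1 encodes. Protein kinase C beta, from Prkcb, answers to calcium and diacylglycerol, and CaMKIV, from Camk4, acts mainly in the nucleus, where CREB is among its substrates.

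Totals were 3515806 to 9517503 counts per male library and 18439999 to 26616318 per female library. Marker genes of CA1, CA3 and the dentate gyrus were detected in both batches. Summed over the markers Prox1, C1ql2 and Dsp, the dentate gyrus level was 6253 ± 387 normalized counts (SD, n = 4) in female ISch and 5843 ± 409 in female FIDch, against 4429 ± 297 in female IS and 4485 ± 230 in female FID. In males the same sum was 1550 to 1611 in the 4 group means. A choroid plexus sum (Ttr, Folr1, Kl and Kcnj13) was 2897 normalized counts in male FID replicate 4 and 17.1 to 129 in the other male libraries. By group means, the excitatory neuron sum was 21262 to 22589 in males and 60588 to 63377 in females, and the astrocyte sum 18908 to 20001 and 55848 to 60631. In bulk tissue, fewer cells of a type and less RNA per cell cannot be told apart.

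Normalized counts here are counts scaled by TMM factors to the mean effective library size of a batch, so they compare a gene between rats of a batch and not genes with each other or batches with each other. The genes differed widely in how well they were counted. Over the 16 male libraries, Camk2a had raw counts of 6076 to 16274 and Camk2g of 24 to 137. In the female libraries Camk2a had 30680 to 48212 and Camk2g 115 to 334. In RefSeq's annotation all but Camk2a, Camk2d and Camk2g overlap at least 1 non-coding RNA gene, and whether the counting used strand is not given in the sources used here. Over the tested genes the mean count of Camk2a stood at the 99.8th percentile in both batches, whereas Camk2g stood at the 30.3rd in males and the 34.5th in females.

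Variation was largest in both batches in the genes with the lowest counts, Camk2g, Camk4 and Camk2d. Ppp3cb was the steadiest in females, with a coefficient of variation of 2.92% over 16 libraries, and Camk2b in males, with 3.53%. Among genes with a mean over 1000 normalized counts, the median coefficient of variation was 6.75% in males and 6.17% in females. Prkcb, at 13.1% and 11.2%, was above that median in both batches, as were Camk2a (7.7% and 10.1%) and Ppp3r1 (7.96% and 6.8%). Camk2g varied most, by 42.1% in males and 25.6% in females, followed by Camk2d with 22.4% in females.

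**Figure D1:**
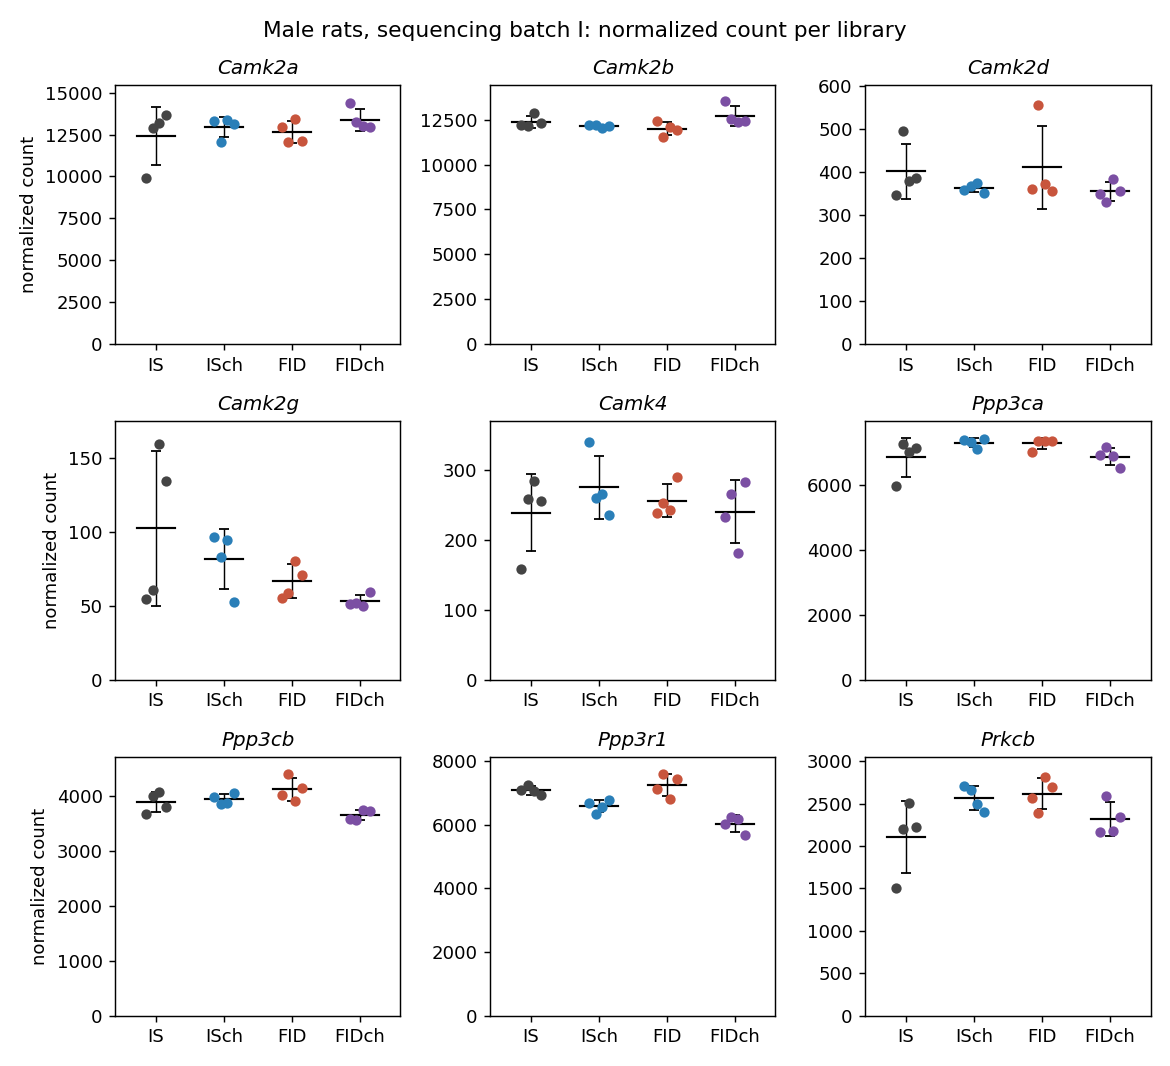
Normalized count (y axis, from 0) of the 9 genes in each male library, by diet group (x axis). Each point is a rat, horizontal lines are group means and bars are ±1 SD with n = 4. Ppp3r1 is lowest in FIDch, at 5666 to 6260, and Prkcb and Camk2a each have a low point in IS replicate 1, at 1508 and 9893.

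**Figure D2:**
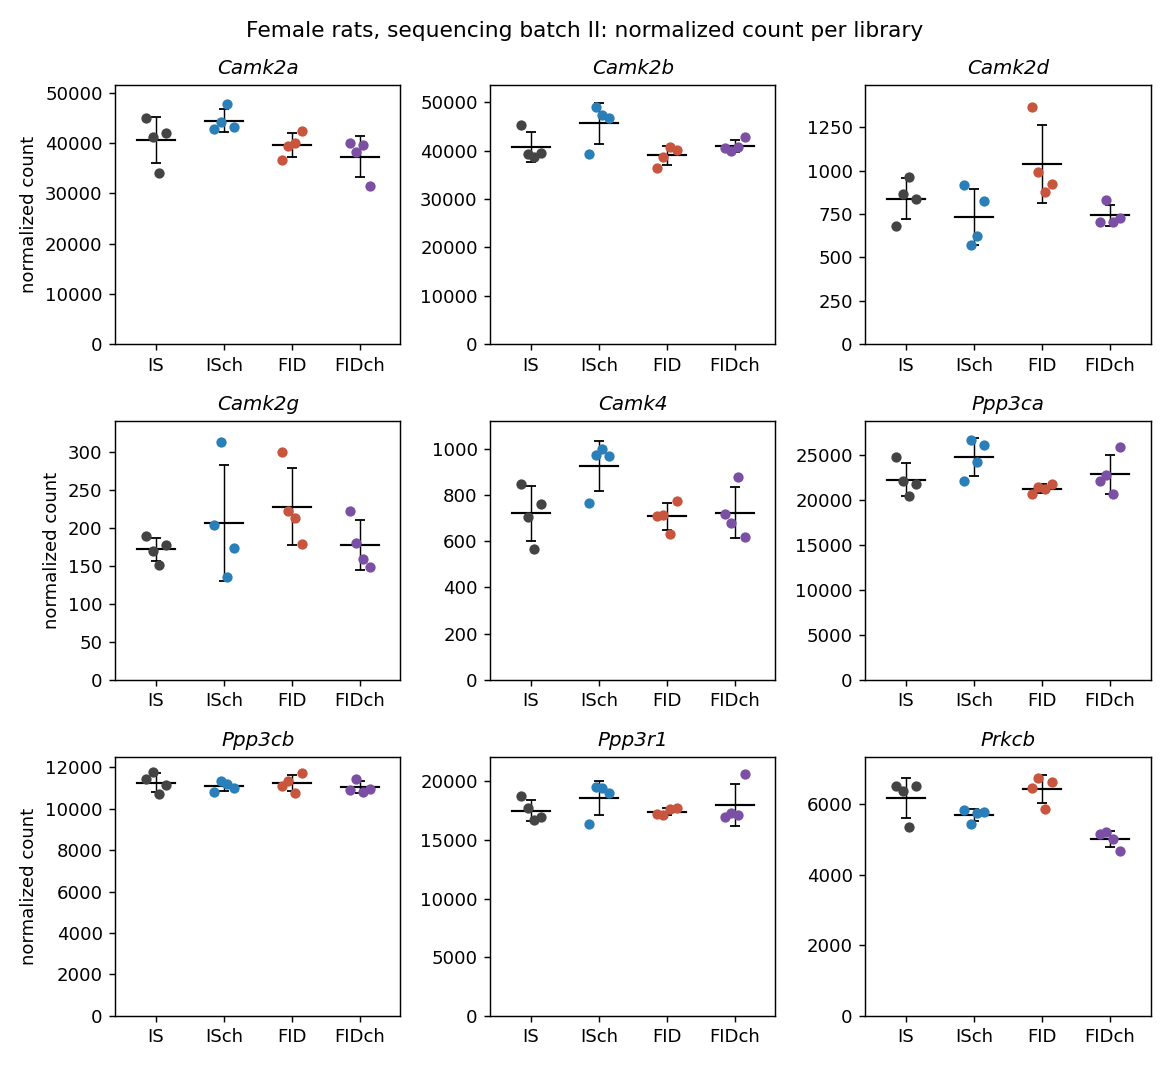
The same plot for the female libraries, with normalized count on the y axis from 0 and diet group on the x axis; points are rats, lines are means and bars are ±1 SD with n = 4. Prkcb is lowest in FIDch, at 4687 to 5212, below all IS and FID rats.

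Among the 3 calcineurin genes, the regulatory subunit gene Ppp3r1 (ENSRNOG00000043210) showed the clearest difference in males. Its normalized counts were 7095, 7266, 7053 and 6930 in the IS males and 7126, 7586, 6814 and 7443 in the FID males. They were 6674, 6349, 6548 and 6776 in ISch and 6018, 6260, 6187 and 5666 in FIDch. Every FIDch male was thus below every other male, and every ISch male was below every IS and FID male. Ppp3r1 fell by 0.27 on the log2 scale in FIDch against FID (standard error 0.054, 95% interval -0.39 to -0.16, adjusted p = 0.0362). Adjusted p-values throughout come from the quasi-likelihood test of edgeR, after Benjamini and Hochberg over all genes tested. By exact permutation of the rats' normalized counts, 2-sided p was 0.0286, the smallest that 4 rats against 4 can give.

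Against IS, the log2 fold change of Ppp3r1 was -0.23 in male FIDch (standard error 0.052, adjusted p = 0.181). In male ISch it was -0.11 (unadjusted p = 0.0318, adjusted p = 0.457), which fell short of the criterion used by the study (unadjusted p under 0.05 and a log2 fold change beyond 0.2 in either direction). In male FID it was 0.03, with a 95% interval of -0.09 to 0.14. Ppp3r1 met the criterion in male FIDch against FID and against IS in each of 17 alternative fits. Its adjusted p in FIDch against FID was over 0.05 in 7 of these, namely with the replicate number as a block (0.159) and without FID replicate 1, 2 or 4 or FIDch replicate 1, 3 or 4 (0.06 to 0.141).

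In females, Ppp3r1 gave no such order. Group means were 17521 ± 924 normalized counts for IS, 18582 ± 1476 for ISch, 17421 ± 297 for FID and 18000 ± 1772 for FIDch (SD, n = 4). The log2 fold change of FIDch against FID was 0.04, with a 95% interval of -0.09 to 0.18. The effect of FIDch against IS differed by 0.28 between females and males (standard error 0.088, unadjusted p = 0.00589, adjusted p = 0.17), a difference between sexes that is also one between batches. Without female FIDch replicate 4, whose count of 20650 stood above the 16927 to 17272 of the other FIDch females, it was 0.20 and missed the criterion.

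The catalytic subunit genes moved less. In males, Ppp3cb (ENSRNOG00000054782) had 3588, 3561, 3748 and 3726 normalized counts in FIDch and 4031, 4415, 3910 and 4152 in FID. These groups did not overlap, with a log2 fold change of -0.18 (unadjusted p = 0.00416, adjusted p = 0.106), short of the fold limit. Ppp3ca (ENSRNOG00000009882), the most abundant catalytic subunit of forebrain neurons, had group means of 6835 to 7286 in males and 21225 to 24733 in females, and no pairwise comparison met the criterion. Its log2 fold changes were -0.09 to 0.09 in males and -0.12 to 0.15 in females. Female Ppp3cb was flat, with group means of 11032 to 11271.

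The balance of subunit counts was therefore examined as a ratio, given as a description without a test. In males, Ppp3r1 relative to the sum of Ppp3ca and Ppp3cb was 0.663 ± 0.05 in IS and 0.636 ± 0.02 in FID (SD, n = 4). It was 0.587 ± 0.013 in ISch and 0.573 ± 0.014 in FIDch. The highest value in either choline group, 0.598, was below the lowest in the groups without choline, 0.605. In females the group means were 0.518 to 0.537 and the groups overlapped. The ratio is one of counts, unadjusted for transcript length, and says nothing of the proportion of subunits in protein.

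**Figure D3:**
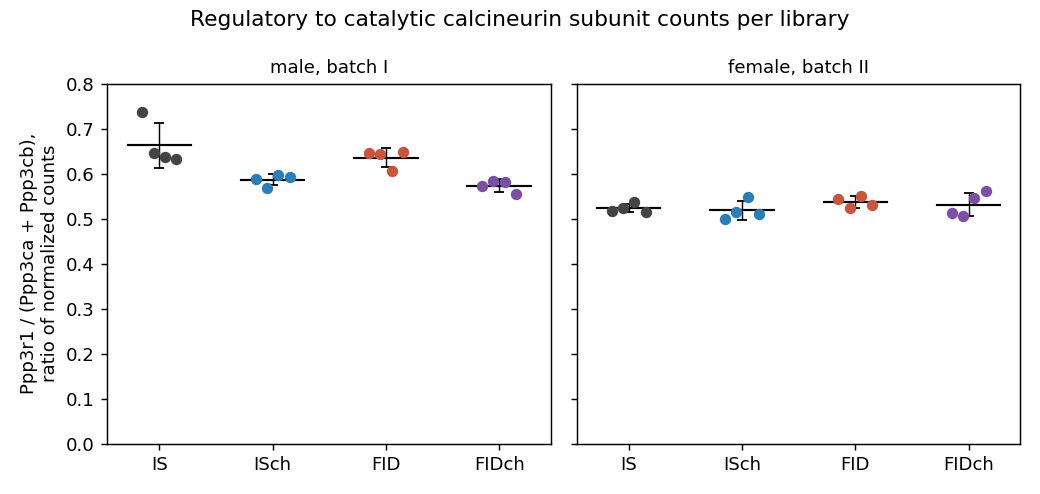
Ratio of the normalized count of Ppp3r1 to the sum of Ppp3ca and Ppp3cb (y axis, from 0) in each library, by diet group (x axis), males left and females right. Points are rats, lines are means and bars are ±1 SD with n = 4; in males the choline groups, at 0.554 to 0.598, lie below the groups without choline, at 0.605 to 0.737.

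As Ppp3r1 had an adjusted p under 0.05 in males, the 250 bases before its start are shown, to let its sequence be read beside its counts. They are from RefSeq in assembly GRCr8, on the + strand at chr14:95769596-95769845, whereas the counts were made on Rnor_6.0 and no position of that build is given. Capitals mark the core of the cAMP response element (TGACG, here on the reverse strand) and the GC box (GGGCGG, here on the reverse strand).
Ppp3r1: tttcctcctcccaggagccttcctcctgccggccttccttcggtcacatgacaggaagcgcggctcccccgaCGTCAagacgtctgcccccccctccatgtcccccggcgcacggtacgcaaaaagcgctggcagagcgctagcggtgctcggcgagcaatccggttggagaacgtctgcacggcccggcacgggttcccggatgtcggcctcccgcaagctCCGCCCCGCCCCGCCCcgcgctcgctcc
The core begins 178 bases before the start and the 3 GC boxes 28, 23 and 18 bases before it. Both strands were searched, and the full element (TGACGTCA, which contains the core) was absent from this window. Of 33469 rat promoters of this length, 18.2% held the core, 30.5% the GC box and 1.59% the full element. A promoter was matched for 8 of the 9 genes, all but Prkcb. The core was found in those of Camk2a, Ppp3cb and Ppp3r1, and the GC box in all but those of Camk2a and Camk4. GC content was 70.4% in the Ppp3r1 window and ranged from 44.4% in Camk4 to 80.8% in Camk2g, with a median of 51.2% over all promoters.

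Prkcb (ENSRNOG00000012061), the gene of protein kinase C beta, was the only one of the 9 to have an adjusted p under 0.05 in females. Its normalized counts were 5145, 5212, 5027 and 4687 in FIDch and 6469, 6758, 5870 and 6649 in FID. IS females had 6528, 6379, 5348 and 6509, and ISch females 5828, 5453, 5756 and 5771. All 4 FIDch females were below every other female. In FIDch against FID, Prkcb fell by 0.36 on the log2 scale (standard error 0.057, 95% interval -0.49 to -0.24, adjusted p = 0.0114, edgeR). The call held in all 16 alternative fits, whose adjusted p ranged from 1.28e-06 to 0.0476. Against IS the fold change of FIDch was -0.30 (standard error 0.068, adjusted p = 0.0814, and 0.00418 to 0.241 over 16 alternatives), and against ISch it was -0.18 (adjusted p = 0.556) without overlap.

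The female choline groups also differed in dentate gyrus markers, and that part in the Prkcb result was not tested. Dsp (desmoplakin) had 292 ± 69.4 normalized counts in female FIDch and 37.4 ± 4.94 in FID (SD, n = 4), and Prox1 3380 ± 217 and 2581 ± 51.2. In ISch, whose dentate marker sum of 5910 to 6749 overlapped that of FIDch at 5348 to 6298, Prkcb was above FIDch in every rat. It was also below FID in every ISch rat, at 5453 to 5828 against 5870 to 6758. Against IS its log2 fold change in ISch was -0.12 (unadjusted p = 0.0781, adjusted p = 0.372, edgeR). The summed microglia markers (Cx3cr1, Csf1r, C1qa and P2ry12) were 3721 ± 133 in female FIDch and 4261 ± 219 in FID.

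**Figure D4:**
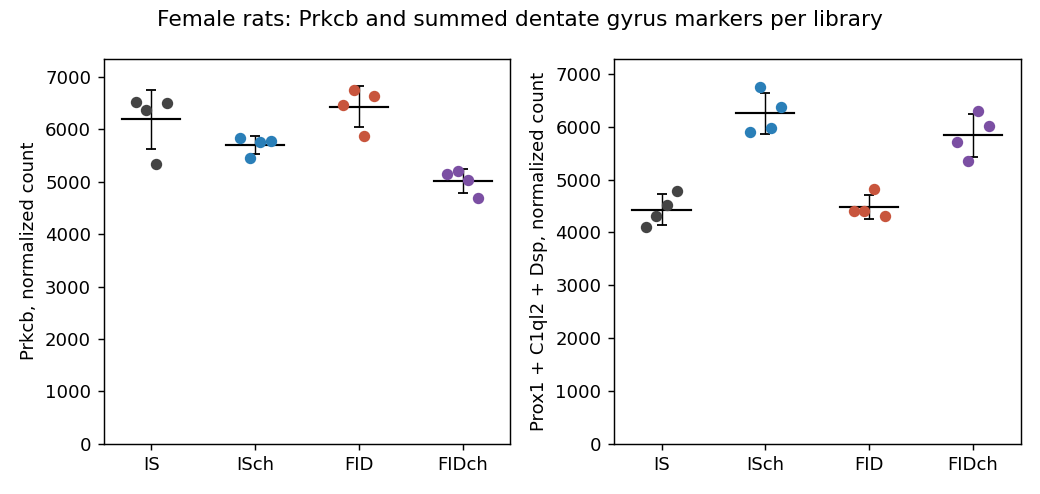
Female rats by diet group (x axis), with the normalized count of Prkcb at left and the sum of the dentate gyrus markers Prox1, C1ql2 and Dsp at right (both y axes from 0). Points are rats, lines are means and bars are ±1 SD with n = 4. Prkcb is lowest in FIDch at 4687 to 5212, and in ISch, at 5453 to 5828, it is below FID, at 5870 to 6758. The marker sum is high in both ISch and FIDch, at 5348 to 6749.

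In males, Prkcb was ordered differently. Its normalized counts were 1508, 2206, 2503 and 2229 in IS, and 2707, 2666, 2497 and 2404 in ISch. FID males had 2563, 2392, 2817 and 2699, and FIDch males 2164, 2594, 2184 and 2344. The groups overlapped in every male comparison. The log2 fold change was 0.31 in FID against IS (standard error 0.12, unadjusted p = 0.0254, adjusted p = 0.786) and 0.28 in ISch against IS (standard error 0.12, unadjusted p = 0.032, adjusted p = 0.457). Without IS replicate 1 these were 0.18 and 0.15 and missed the criterion. The former also missed it without FID replicate 3 or 4, and the latter without ISch replicate 1 or 2. Without both of these ISch rats, whose labels have another form, the latter was 0.21 (unadjusted p = 0.198, edgeR). IS replicate 1 was the lowest of the 16 males in 4 of the 9 genes, Camk2a, Camk4, Ppp3ca and Prkcb.

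Whether choline acted alike on both iron histories was addressed by the interaction, the change from FID to FIDch less the change from IS to ISch. For Prkcb it was -0.46 on the log2 scale in males (standard error 0.15, unadjusted p = 0.0065, adjusted p = 0.202) and -0.24 in females (standard error 0.086, unadjusted p = 0.0123, adjusted p = 0.425). The male value met the criterion in all 24 alternatives, at -0.55 to -0.33, and the female value in 22 of 23, missing it at -0.18 without female IS replicate 3. The effects of FIDch and of ISch against IS were lower in females than in males by 0.44 and by 0.41 on the log2 scale (adjusted p = 0.226 and 0.192, edgeR).

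Camk2a (ENSRNOG00000018712) and Camk2b (ENSRNOG00000052080), the neuronal CaMKII genes, changed little in males. The means of Camk2a were 12409 ± 1711 normalized counts for IS, 12971 ± 601 for ISch, 12649 ± 671 for FID and 13394 ± 659 for FIDch (SD, n = 4). Those of Camk2b were 12385 ± 342, 12145 ± 76.8, 11996 ± 357 and 12722 ± 541 in the same order. The 10 male log2 fold changes of the pair were -0.05 to 0.11 and none met the criterion. For FID against IS the 95% interval was -0.17 to 0.21 in Camk2a and -0.16 to 0.06 in Camk2b.

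In females, Camk2a was highest in ISch, with 42713, 44280, 47824 and 43109 normalized counts, and lowest in FIDch, with 39999, 38244, 39601 and 31429. The groups did not overlap, and the log2 fold change of FIDch against ISch was -0.25 (standard error 0.075, unadjusted p = 0.00678, adjusted p = 0.556). Without FIDch replicate 4 it was -0.18 and missed the criterion. The summed CA1 markers (Wfs1, Fibcd1 and Pou3f1) ranged from 6051 normalized counts in FIDch replicate 3 to 15730 in FIDch replicate 4. Replicate 4 also had the lowest CA3 sum (3039), the lowest excitatory neuron sum (57631) and the highest oligodendrocyte sum (175562) of the FIDch females. The part of cell composition was not tested. Camk2b had 45582 ± 4270 in ISch and 40692 ± 3123 in IS (SD, n = 4), a log2 fold change of 0.16 (unadjusted p = 0.0433, adjusted p = 0.288) below the fold limit.

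Camk2d (ENSRNOG00000011589), the delta gene, differed in females between the formerly iron-deficient groups. FID females had 1371, 995, 875 and 925 normalized counts and FIDch females 703, 834, 705 and 726. All FID rats were above all FIDch rats, with a log2 fold change of FIDch against FID of -0.49 (standard error 0.13, unadjusted p = 0.00284, adjusted p = 0.078). It met the criterion in all 16 alternatives, at -0.56 to -0.33. IS females had 682, 868, 967 and 838, which overlapped FID. FID against IS gave 0.31 (unadjusted p = 0.0353, adjusted p = 0.404), which was 0.15 without FID replicate 1 and missed the criterion there, without IS replicate 1 or 4, with DESeq2, with the 4 groups in one fit and with the block. Male Camk2d met the criterion in no comparison, and its highest values, 557 in FID replicate 2 and 495 in IS replicate 2, were single rats of their groups.

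Camk2g (ENSRNOG00000009783), the gamma gene, rested on the fewest counts. In males it had 54.6, 61.1, 160 and 134 normalized counts in IS, and 96.9, 83.4, 94.6 and 52.4 in ISch. FID males had 55.6, 59.1, 80.7 and 71.3, and FIDch males 51.6, 52.3, 50.3 and 59.7. The IS values split into a pair near the other groups and a pair above them. The log2 fold change of male FIDch was -0.92 against IS (standard error 0.31, adjusted p = 0.452), -0.61 against ISch (standard error 0.19, adjusted p = 0.196) and -0.33 against FID (standard error 0.15, unadjusted p = 0.0498, adjusted p = 0.28). The groups overlapped in all 3. The last of these missed the criterion in 12 of 17 alternatives, among them those without FID replicate 3 or 4 or FIDch replicate 1, 2 or 3. That against ISch missed it in 2, without the 3 libraries whose labels have another form (-0.44) and with the 4 groups in one fit (-0.61).

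Female Camk2g had 300, 222, 213 and 178 normalized counts in FID and 189, 169, 152 and 178 in IS. FID against IS gave 0.41 (standard error 0.14, unadjusted p = 0.0134, adjusted p = 0.297), and 0.25 without FID replicate 1, short of the criterion. The female interaction was -0.63 (unadjusted p = 0.0491, adjusted p = 0.543) and missed the criterion in 13 of 23 alternatives. Of the 16 fits that left out 1 female it did so in 11, all but those without IS replicate 1, ISch replicate 3 or 4, FID replicate 4 or FIDch replicate 1, and it was -0.36 without ISch replicate 2. Between the sexes, the effect of FID against IS differed by 1.0 (adjusted p = 0.491) and that of FIDch against IS by 0.98 (adjusted p = 0.237), higher in females.

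Camk4 (ENSRNOG00000020478), the nuclear kinase gene, was highest in ISch in both batches. Female ISch had 766, 972, 998 and 969 normalized counts, IS 849, 706, 566 and 763, FID 710, 714, 631 and 776, and FIDch 718, 677, 876 and 620. The log2 fold change of ISch against IS was 0.36 (standard error 0.12, unadjusted p = 0.0108, adjusted p = 0.156), and that of FIDch against ISch was -0.36 (standard error 0.11, unadjusted p = 0.0104, adjusted p = 0.556). Both met the criterion in all 16 alternatives, although the groups overlapped in ISch replicate 1. In males the ISch mean was 275 ± 45.1 and the IS mean 239 ± 55.4 (SD, n = 4), and no comparison met the criterion.

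The numbers of the 9 genes at the criterion were set beside the share of all tested genes. In male FID against IS 1 of 9 met it (Prkcb, higher), where 4.62% of all genes did and 0% had an adjusted p under 0.05. In male ISch against IS it was also 1 (Prkcb, higher), beside 8.06% and 0.208%. In male FIDch against IS 2 met it (Camk2g and Ppp3r1, lower), beside 6.12% and 0.131%. In male FIDch against FID the same 2 were lower and Ppp3r1 also had an adjusted p under 0.05, beside 13.0% and 1.28%. In male FIDch against ISch 1 met it (Camk2g, lower), beside 8.12% and 0.0430%.

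In females, 2 of 9 met the criterion in FID against IS (Camk2d and Camk2g, higher), where 6.47% of all genes did and 0.191% had an adjusted p under 0.05. In ISch against IS 1 did (Camk4, higher), beside 10.3% and 2.54%. In FIDch against IS 1 did (Prkcb, lower), beside 8.98% and 0.907%. In FIDch against FID 2 did (Camk2d and Prkcb, lower), Prkcb also by adjusted p, beside 12.7% and 2.28%. In FIDch against ISch 2 did (Camk2a and Camk4, lower), beside 4.57% and 0.00689%. As a share of 9, the count was above the share of all genes in each of the 10 pairwise comparisons, but it rested on 1 or 2 genes each time. The smallest share above 0 that 9 genes can give is 1 of 9. That alone is above the share of all genes in every pairwise comparison where 1 gene was called. The comparisons within a sex also share the rats of all 4 groups, so they are not independent.

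For the interaction, 1 of 9 met the criterion in males, beside 14.4% of all genes and 0.00699% by adjusted p, and 2 in females, beside 7.33% and 0.00668%. For the differences between the sexes, 1 met it in the effect of FID, beside 7.64% and 0.0396%, 3 in that of FIDch, beside 12.9% and 0.362%, and 1 in that of ISch, beside 14.2% and 1.28%. The adjusted p under 0.05 was reached by 0 of the 9 in these 5 tests. An unadjusted p under 0.05 (edgeR) was reached by 4 in the male interaction, beside 2210 of all 14314 genes tested. In the female interaction it was reached by 2, beside 1375 of 14975. Between the sexes it was reached by 1 for FID (beside 1262 of 15138), 3 for FIDch (beside 2111 of 15177) and 3 for ISch (beside 2344 of 15141).

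The median log2 fold change of the 9 genes was -0.18 in male FIDch against FID, where 7 had a negative sign and the median of all tested genes was 0.00. In female FIDch against FID it was -0.03, with 5 negative signs. In female FIDch against ISch it was -0.15 with 8 negative signs, and in male FID against IS it was 0.03 with 2. The median of all tested genes in these comparisons was -0.01 to -0.00, and their share of negative signs is not given here. Signs in the other comparisons are not listed. The 9 genes were counted in the same rats and several were related, so their signs are not independent.

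**Figure D5:**
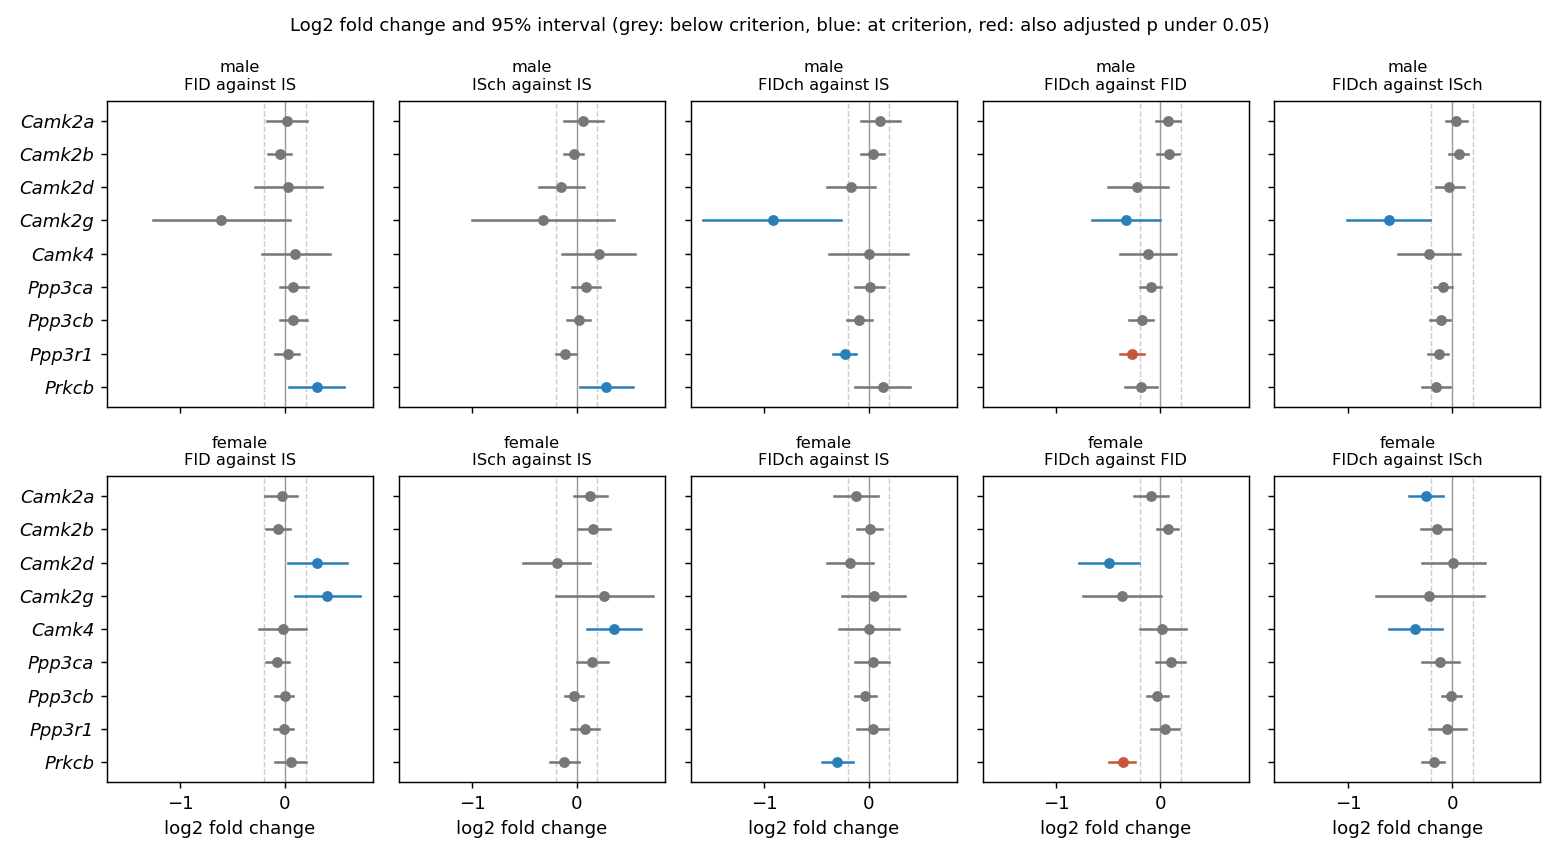
Log2 fold change (x axis) of each of the 9 genes (y axis) in 5 comparisons in males (top) and females (bottom), with 95% intervals from edgeR's fit; dashed lines mark ±0.2. Only Ppp3r1 in male FIDch against FID and Prkcb in female FIDch against FID are red, for an adjusted p under 0.05, at -0.27 and -0.36.

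Expression of the 9 genes was also related across the 16 rats of each batch, in 72 relations with Benjamini-Hochberg adjustment over all of them. In females, Ppp3ca and Ppp3r1 varied together (Pearson's r = 0.86, permutation p = 0.00011, adjusted p = 0.0026; Spearman's rho = 0.72, permutation p = 0.0022, adjusted p = 0.023). Without the 2 rats farthest from the median of Ppp3ca r was 0.84, and after subtracting group means it was 0.88. The relation was not particular to this pair, as Camk2b was also related to Ppp3ca in females (r = 0.87, permutation p = 6e-05, adjusted p = 0.0026). With Ppp3r1 the r of Camk2b was 0.78 (permutation p = 0.00069, adjusted p = 0.0083). Not every relation with an adjusted p under 0.05 is named here. Camk2b and Camk2d ran opposite to each other in females (r = -0.81, permutation p = 0.0001, adjusted p = 0.0026; rho = -0.86, permutation p = 3e-05, adjusted p = 0.0022), with r = -0.69 without the 2 farthest rats and -0.84 within groups. Camk2a and Camk4 varied together in females (r = 0.80, permutation p = 0.0002, adjusted p = 0.0036; rho = 0.84, permutation p = 0.00015, adjusted p = 0.0054), with r = 0.74 and 0.76 in the same checks.

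In males, Ppp3cb and Ppp3r1 were related (r = 0.75, permutation p = 0.00068, adjusted p = 0.0083; rho = 0.74, permutation p = 0.0015, adjusted p = 0.023), with r = 0.68 without the 2 farthest rats and 0.48 within groups. Ppp3ca and Prkcb had r = 0.82 (permutation p = 0.0023, adjusted p = 0.018; rho = 0.64, permutation p = 0.008, adjusted p = 0.065). The r was 0.54 without the 2 rats farthest from the median of Ppp3ca, so the size of the male relation rests in part on them. The pairs named for 1 batch had an r of smaller size in the other, in some with the opposite sign. Male r was 0.25 for Ppp3ca and Ppp3r1, -0.47 for Camk2b and Camk2d, and 0.51 for Camk2a and Camk4 (rho = 0.08). Female r was 0.19 for Ppp3cb and Ppp3r1 and -0.25 for Ppp3ca and Prkcb. All values within a batch share its dissections and library preparation.

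Among all genes with a symbol, the 3 whose log2 CPM ran most like Prkcb over the 16 males were Ppp1r9a (r = 0.985), Ccser2 (0.968) and Ttll7 (0.966), and over the 16 females Lrrc14b (0.933), Arhgap23 (0.930) and Hivep2 (0.927). In the other batch the first 3 had r = 0.630, 0.688 and 0.849 with Prkcb and the latter 0.003, 0.435 and 0.832. For Ppp3r1 they were Capza2 (0.950), Tax1bp1 (0.943) and Gpm6a (0.938) in males, and S100b (0.913), Manbal (0.896) and Lyzl4 (0.893) in females. In the other batch these had r = 0.495, 0.204 and 0.619, and -0.180, 0.356 and 0.125. For Camk2a they were Igdcc4 (0.902), Cd2ap (0.897) and Gpam (0.887) in males, and Paqr8 (0.934), Ppp1r16b (0.917) and Ago1 (0.897) in females, with 0.710, 0.248 and 0.752, and 0.676, 0.865 and 0.670, in the other batch. These are the highest of 12813 and 13360 correlations, given as a description.

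The surrounding pathway was taken from 6 lists of 72 genes, of which 71 were tested. At the criterion, 0 of them were higher and 2 lower in male FID against IS (2.82%, beside 4.62% of all genes), and 1 was higher and 0 lower in female FID against IS (1.41%, beside 6.47%). Male FIDch against IS had 0 higher and 2 lower (2.82%, beside 6.12%), and male ISch against IS 0 and 4 (5.63%, beside 8.06%). In male FIDch against FID it was 1 and 8 (12.7%, beside 13.0%), and in male FIDch against ISch 2 and 3 (7.04%, beside 8.12%). In females, 3 and 1 met it in FIDch against IS (5.63%, beside 8.98%), 5 and 4 in ISch against IS (12.7%, beside 10.3%), 3 and 6 in FIDch against FID (12.7%, beside 12.7%) and 2 and 2 in FIDch against ISch (5.63%, beside 4.57%). An adjusted p under 0.05 was reached by 2 of the 71 in male FIDch against FID, 6 in female FIDch against FID and 3 in female ISch against IS.

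Upstream of the CaM kinases, Camkk1, a kinase that activates CaMKI and CaMKIV, rose in female FIDch against FID, with 10548 ± 779 against 8936 ± 228 normalized counts (SD, n = 4; log2 fold change 0.24, adjusted p = 0.0460, edgeR). Its relative Camkk2 fell in the same comparison, with 1209 ± 51.4 against 1443 ± 98.2 (-0.26, adjusted p = 0.0491). Camkk1 was also higher in female ISch than in IS without overlap (0.23, adjusted p = 0.120).

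Among calmodulin-binding genes, Gap43, a growth-cone protein, fell in female FIDch against FID from 4705 ± 210 to 3922 ± 173 normalized counts (SD, n = 4; -0.27, adjusted p = 0.0220), whereas Pcp4 rose from 2221 ± 110 to 2662 ± 67.6 (0.26, adjusted p = 0.0217). Calb1, encoding the calcium buffer calbindin, rose in female ISch against IS from 1940 ± 216 to 2454 ± 175 (0.34, adjusted p = 0.0490). In male FIDch against IS it was lower, at 769 ± 50.7 against 896 ± 56.6 (-0.22, adjusted p = 0.452). Calb1 is strongly expressed by dentate granule cells, whose marker sums were higher in the female choline groups, and their part was not tested.

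Of the 10 other protein kinase C genes listed, 1 was lower at the criterion in male ISch against IS (beside 8.06% of all genes) and 1 higher in male FIDch against ISch (beside 8.12%), with adjusted p-values over 0.05. In females, 1 was lower in ISch against IS (beside 10.3%) and 2 were lower in FIDch against FID (beside 12.7%), and in each of these comparisons 1 had an adjusted p under 0.05.

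Of the protein kinase A and phosphatase 1 list, Ppp1cb, a catalytic subunit of protein phosphatase 1, fell in male FIDch against FID from 3196 ± 201 to 2656 ± 104 normalized counts (SD, n = 4; -0.28, adjusted p = 0.0426). Pkia, an inhibitor of protein kinase A, fell there from 1106 ± 50.4 to 897 ± 75.6 (-0.30, adjusted p = 0.0472). In females Pkia rose instead, by 0.22 in FIDch against FID (adjusted p = 0.0335) and by 0.25 in ISch against IS (adjusted p = 0.0400), and it was 0.23 higher in FIDch against IS (adjusted p = 0.0875). Whether the 2 sexes differed in the change from FID to FIDch was not tested.

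Of the substrates, Marcks, a membrane protein phosphorylated by protein kinase C, was lower in male FIDch than in IS without overlap, at 650 ± 49.2 against 810 ± 48.4 normalized counts (SD, n = 4; -0.31, adjusted p = 0.223, edgeR). In female FID it was higher than in IS, at 1754 ± 52.1 against 1515 ± 90.2 (0.21, adjusted p = 0.114). Of calcineurin's other subunits and regulators, 13 of 14 were tested. At the criterion, Chp1 and Ppp3cc were lower in male FIDch against FID (-0.20 and -0.23, adjusted p = 0.160 and 0.274), beside 13.0% of all genes. Akap5, the anchor that holds calcineurin and protein kinases near receptors, was lower in female FIDch against IS (-0.22, adjusted p = 0.210, beside 8.98%) and against FID (-0.23, adjusted p = 0.136, beside 12.7%). Nfat5 was lower in female FIDch against ISch (-0.21, adjusted p = 0.556, beside 4.57%).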

How the data were processed

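RNA-seq counts of 32 rat hippocampi were used, 4 rats per diet group and sex. The paper used a single male of each litter in its own experiments and took its RNA-seq data from an earlier study. Litters of the rats counted here, male or female, are not given in the sources used here. Whether rats of a group shared a litter is therefore not known. Per the labels, libraries were made with the TruSeq RNA v2 kit after RNAqueous (males) or RNeasy Midi (females) extraction. The authors deposited raw counts per gene; their processing notes name FastQC, Trimmomatic, HISAT2, featureCounts of Subread and build Rnor_6.0. The strand setting, the treatment of multiply mapped reads and the annotation version are not given in the sources used here.

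Tests used edgeR 4.0.16 (R 4.3.3): TMM normalization, filterByExpr, and glmQLFit with glmQLFTest on the groups compared, with Benjamini-Hochberg adjustment over all genes tested. The interaction was fitted on the 16 libraries of a batch, and differences between the sexes on the 16 libraries of the groups concerned. Correlations used log2 CPM with a prior count of 2 and 100000 permutations. Replicate pairs (48) differed by 2.02 to 25.2 chi-square units per gene, above counting noise. In simulated data for male FID against IS (13721 genes fitted), 4.34% of unchanged genes met the study's criterion and 96.9% of 64 genes with a log2 fold change of 0.5 did. By the criterion, that size was recovered for 85.5% of 62 genes in female FID against IS (14507 fitted). It was recovered for 75.6% of 78 in the male interaction (14223 fitted) and 76.7% of 60 in FID between the sexes (14899 fitted). By an adjusted p under 0.05 recovery was 56.2% in male and 62.9% in female FID against IS. It was 35.9% in the male interaction and 36.7% between the sexes. Sizes between 0 and 0.5 were not simulated.

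Genes beyond the 9 are named where they had an adjusted p under 0.05 in a pairwise comparison, or met the criterion without overlap in a comparison with IS, and where they were the 3 most alike to Camk2a, Ppp3r1 or Prkcb. Chp1, Ppp3cc, Akap5, Nfat5, Dsp and Prox1 were named after their values were seen, and the results of 1 gene under this rule are not reported here. The 9 genes, the pathway and marker lists and the tests were chosen with earlier results of these data known. The alternatives tried were the likelihood ratio test, DESeq2 1.42.0, RLE factors, library size alone, 2 other filters, the 4 groups in one fit, a replicate block, the adjusted p, the male libraries without 3 whose descriptions have another form, and each library left out. The 3 males with another form were ISch replicate 1, ISch replicate 2 and FIDch replicate 2. In males that form thus occurred only in choline groups, and FIDch replicate 2 also had the fewest counts (3515806). Promoters and gene overlaps came from RefSeq (GRCr8). Count columns without a sample numbered 0.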

Additional observations from a re-analysis of the deposited data

Results flagged for a closer look

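In groups of 4 rats, a single rat stood apart from the other 3 (by its gap to the nearest over the range) in 7 of 72 groups of gene and diet. The limit used is passed by about 5% of groups if values are independent and normally distributed. The 72 groups share rats and hold related genes, and the share over all genes is not given here. The 7 are therefore not read as an excess. In males these were Camk2b in FIDch replicate 1 (13529 normalized counts), Camk2d in FID replicate 2 (557) and Ppp3ca in FID replicate 1 (7011). In females they were Camk2b in IS replicate 1 (45336), Camk4 in ISch replicate 1 (766), Ppp3r1 in FIDch replicate 4 (20650) and Prkcb in IS replicate 3 (5348).

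In 8 of 45 tests of a difference between 2 effects, the difference met the study's criterion, with no adjusted p under 0.05. For the interaction of iron history and choline these were Prkcb in males (-0.46) and Prkcb (-0.24) and Camk2g (-0.63) in females, on the log2 scale. Between females and males they were Camk2g for FID (1.0) and FIDch (0.98), Ppp3r1 for FIDch (0.28), and Prkcb for FIDch (-0.44) and ISch (-0.41). The latter 5 cannot be told apart from differences between the sequencing batches.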

How the results depend on the processing

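Of 449 refits of 23 calls of the 9 genes, 383 kept the call, 66 lost it (21 of them by asking for an adjusted p, 29 by leaving out 1 library) and 0 changed direction. Where a call was lost the cause was not tested. Leaving out a library also left fewer rats. In some calls lost this way the log2 fold change fell inside the limit of 0.2. It was 0.18 and 0.15 for Prkcb in male FID and ISch against IS without IS replicate 1. For Camk2a in female FIDch against ISch it was -0.18 without FIDch replicate 4. For the female interaction of Prkcb it was -0.18 without IS replicate 3. In others it stayed beyond the limit, as for Prkcb in male FID against IS without FID replicate 3 (0.27). The number of the 9 genes at the criterion became 0 in 13 of 15 comparisons under an adjusted p and 1 in male and in female FIDch against FID. With the 4 groups in one fit it was 2 in male FID against IS (Camk2g and Prkcb), 1 in male FIDch against FID, 0 in male FIDch against ISch and 0 in female FID against IS. With DESeq2 it was 2, 1 and 1 in male FID against IS, male FIDch against FID and female FID against IS, and 2 for ISch between the sexes, as with RLE factors, which gave 1 in male FIDch against FID. The likelihood ratio test gave 2 in male FID against IS and 1 in male FIDch against FID, and library size alone gave 1 there and 1 in the female interaction. With all genes of at least 1 count it was 2 in male FID against IS, the male interaction and FID between the sexes; with a minimum of 1 CPM it was 2 in the male and 1 in the female interaction. Without the 3 males whose labels have another form it was 0 in ISch and 0 in FIDch against ISch, as against 1 each, and 3 in the male interaction.

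Same-numbered replicates correlated by -0.15 to 0.22 between groups, and in no pair of groups were all over 0.1. No pairing by replicate number was thus seen. Whether rats of different groups shared a litter or a preparation cannot be told from these correlations. With the replicate block the count was 2 in male FID against IS, 1 in male FIDch against FID, 1 in female FID against IS and 3, in place of 2, in female FIDch against FID.

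Leaving out 1 library gave 0 to 2 genes in male FID against IS, 2 to 3 in FIDch against IS, 0 to 1 in ISch against IS, 1 to 3 in FIDch against FID and 1 to 2 in FIDch against ISch. In females it gave 0 to 2, 1 to 2, 1 to 4 (4 without ISch replicate 1 and 3 without IS replicate 1), 2 to 3 and 1 to 3 in the same order. The interactions gave 1 to 3 (3 without IS replicate 2) and 0 to 4 (0 without IS replicate 3, 4 without IS replicate 1), and the differences between the sexes 1 to 3 for FID, 2 to 4 for FIDch and 1 to 3 for ISch. Depth limits Camk2g most, with 24 to 137 counts per male library.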
